A study of Mus musculus with 4 samples.

Results

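MHC class I molecules display peptides from inside the cell to CD8 T cells. Each is a heavy chain of the H2 family held by the light chain beta-2-microglobulin, encoded by B2m, without which most heavy chains do not reach the cell surface. The classical heavy chains H2-K1 and H2-D1 present a wide range of peptides, while the nonclassical chains of the Q, T and M regions have restricted ligands and signal to natural killer cells and unconventional T cells. Transcription of the family is raised by interferons and by the coactivator NLRC5, which acts through a promoter module made of S, X and Y boxes. The 10 genes described here were taken by symbol as 9 heavy chains and B2m, out of 24346 gene symbols in all. They are H2-K1, H2-D1, H2-Q4, H2-Q6, H2-Q7, H2-T23, H2-T22, H2-T10, H2-M3 and B2m.

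RNA sequencing was carried out on MC38, a colon carcinoma line from C57BL/6 mice (H-2b haplotype), prepared as stranded mRNA libraries. Of these, 2 carry the label of wild-type cells and 2 that of cells with an Arid5a gene knockout, and the abbreviations WT and KO below stand for these labels. No treatment was named, and the labels give neither the deleted part of Arid5a, nor whether the KO cells are 1 clone, nor whether the replicates are separate cultures, so p-values measure only the spread between these libraries. Values are FPKM, fragment counts scaled to transcript length and library size. Depth, read from the steps between low values, ranged from about 9440000 fragments (KO replicate 1) to 14100000 (WT replicate 1). Arid5a was higher, not lower, in the libraries that carry the KO label, at 2.16 and 1.77 FPKM against 0.225 and 0.124 FPKM. Exchanged labels and a knockout that leaves the transcript in place cannot be told apart here, and exchanged labels would turn the sign of every change below. Every direction therefore refers to the labels as deposited and not to a loss of Arid5a. In bulk RNA, fewer cells of a type and less RNA per cell cannot be told apart. The labelled tissue did not show in its defining markers, since the summed level of 8 epithelial markers was 0.544 to 1.05 FPKM and Epcam and Cdx2 were listed at 0 in all 4 libraries. Of 15 leukocyte markers, 8 were at 0 in all 4 libraries, and the pan-leukocyte marker Ptprc was at 0.0655 and 0.0854 FPKM (WT) and 0 and 0 FPKM (KO). The summed level of the 15 was 8.92 and 11.7 FPKM (WT) and 2.71 and 1.94 FPKM (KO), made up mostly of Cd68 and S100a8, and the part of this fall in the results below was not tested. Of 6 fibroblast markers, 4 were tested, with 2 called lower and 1 higher by limma, where 47.6% of all genes tested were called. The summed level of the 6 was 42.2 and 37.9 FPKM (WT) and 16.5 and 17.3 FPKM (KO). Col3a1 was at 29.3 and 26.4 FPKM (WT) and 6.78 and 6.86 FPKM (KO), Dcn at 5.13 and 4.53 FPKM (WT) and 0.613 and 0.993 FPKM (KO), and Col1a1 at 0.275 and 0.246 FPKM (WT) and 2.14 and 1.95 FPKM (KO). None of the 6 was at 0 in all libraries, and their part was not tested either. In the same libraries H2-K1, H2-D1 and B2m stood between 344 and 1573 FPKM.

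The promoters come first, because the SXY module is the sequence that these genes are known to share. Windows of 300 bases around the start of transcription (RefSeq, GRCm38.p6) were found for 9 of the 10 genes, all but H2-T10. In 7 of these 9 windows TGAC was followed, after 20 or 21 bases, by ATTGG, the inverted CCAAT box at the Y position. Of all 32851 promoter windows, 134 (0.408%) held this pair on either strand. The pair was written down after the sequences had been read, so its share describes them. Below, each stretch runs 5′ to 3′ on the gene's strand, with the pair in capitals, and the stretches of H2-T23 and H2-T22, which lack the pair, are those most like the stretch of H2-K1.
H2-K1, chr17:34000359-34000388, minus strand: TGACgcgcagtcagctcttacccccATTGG
H2-D1, chr17:35262993-35263022, plus strand: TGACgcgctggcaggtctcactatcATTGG
H2-Q4, chr17:35379513-35379542, plus strand: TGACttactggcagttctcacccccATTGG
H2-Q6, chr17:35424747-35424775, plus strand: TGACctgtaacagttctcacccctATTGG
H2-Q7, chr17:35439091-35439119, plus strand: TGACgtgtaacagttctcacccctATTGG
H2-M3, chr17:37270188-37270217, plus strand: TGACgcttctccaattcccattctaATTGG
B2m, chr2:122147609-122147638, plus strand: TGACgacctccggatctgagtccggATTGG
H2-T22, chr17:36042853-36042882, minus strand: tgacttggcactagttctcactttctgtag
H2-T23, chr17:36032773-36032802, minus strand: tgatgcagtctcaattctcatttctgttgg

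Among stretches set by the pair, those of H2-D1 and H2-Q4 had 23 of 30 bases in common with that of H2-K1, H2-M3 had 17 and B2m had 13. The stretches of H2-T23 (17) and H2-T22 (15) were picked for their likeness to H2-K1. Their numbers therefore cannot be ranked against the others. All 9 windows also held an interferon-type element on 1 of the strands, in a short form (GAANNGAAA, in 7.52% of all windows) or a long form (GAAANNGAAA, in 3.44%). The short form stood in H2-K1, H2-D1, H2-Q4, H2-Q6, H2-Q7 and H2-M3, each time as GAAGTGAAA on the opposite strand, and the long form in B2m, H2-T22 and H2-T23. The kappa-B-type letters GGGNNNNNCC occurred in 8 of the 9, all but H2-T23, but also in 50.8% of all windows. The bases upstream of H2-K1, B2m and H2-T22 are shown to set a classical heavy chain beside the light chain and beside the tested heavy chain with the lowest level relative to WT; the kappa-B-type letters of H2-T22 lie further upstream than the bases shown. In them capitals mark interferon-type and kappa-B-type matches and the pair, and no match of one kind overlapped one of another kind. For H2-T23 only 30 bases around its interferon-type match (capitals) are given.
H2-K1, chr17:34000348-34000547, minus strand: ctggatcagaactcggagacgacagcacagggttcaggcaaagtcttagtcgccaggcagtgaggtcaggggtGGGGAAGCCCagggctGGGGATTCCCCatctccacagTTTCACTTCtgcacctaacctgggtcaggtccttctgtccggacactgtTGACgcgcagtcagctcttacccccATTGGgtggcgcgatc
B2m, chr2:122147487-122147685, plus strand: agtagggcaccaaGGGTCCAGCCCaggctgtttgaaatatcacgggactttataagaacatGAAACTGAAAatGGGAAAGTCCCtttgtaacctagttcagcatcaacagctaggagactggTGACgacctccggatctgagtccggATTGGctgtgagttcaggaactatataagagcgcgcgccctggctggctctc
H2-T22, chr17:36042748-36042942, minus strand: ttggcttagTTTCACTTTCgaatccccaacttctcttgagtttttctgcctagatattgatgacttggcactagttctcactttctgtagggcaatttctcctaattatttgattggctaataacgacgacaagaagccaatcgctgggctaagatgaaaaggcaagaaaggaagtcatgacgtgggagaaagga
H2-T23, chr17:36032806-36032835, minus strand: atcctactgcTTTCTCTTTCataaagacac

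The study's design asks which transcripts differ with the Arid5a knockout. Class I transcripts were lower in the KO libraries, with the classical heavy chains and B2m at 38.6% to 42.6% of their WT mean and H2-M3 at 77.4%, while H2-T23 at 89.1% was not called. Of the 8 genes that reached a mean of 1 FPKM over the 4 libraries, 7 were called lower and 0 higher with limma (Benjamini-Hochberg adjusted p under 0.05 over all genes tested). Over all 10827 genes tested, 23.3% were called lower and 47.6% were called in either direction. The median log2 change of the 8 genes was -1.26, against 0.006 over all genes tested. Both libraries labelled KO lay below both labelled WT for all 8, as 1 group lay entirely above the other for 77.5% of all genes tested. H2-Q6 and H2-Q7 stayed below the filter and were not tested. Log2 changes are of FPKM + 1, which understates those of genes near 1 FPKM, and SE is the standard error of the fit.

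**Figure D1:**
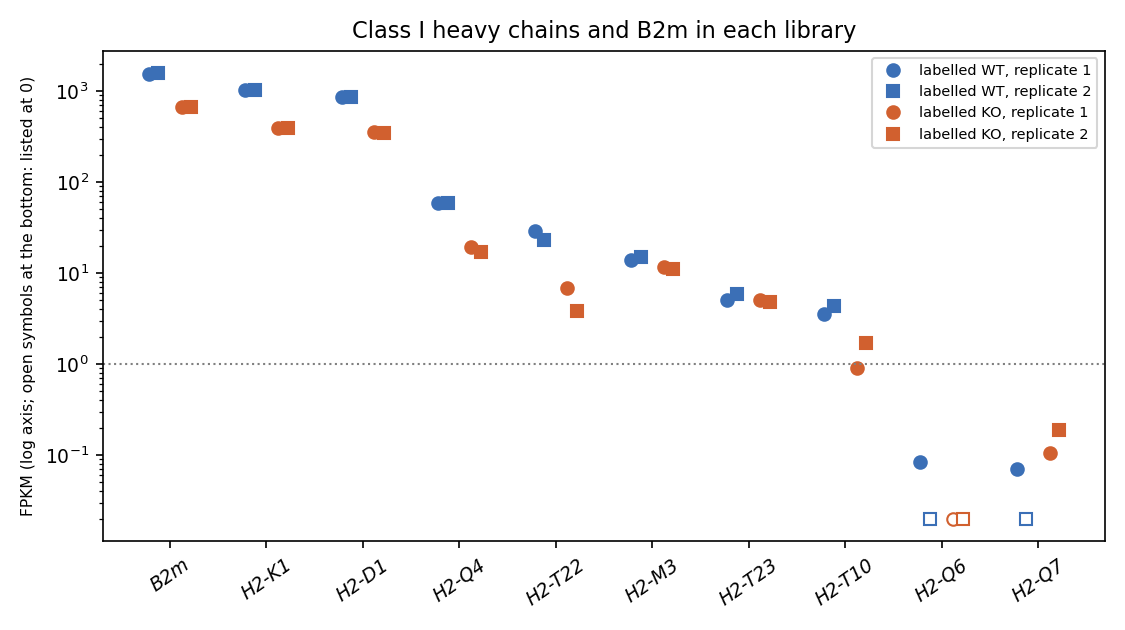
FPKM of the 10 genes in each of the 4 libraries on a log axis, ordered by the mean of the libraries labelled WT. Open symbols at the bottom mark values listed at 0 and the dotted line marks 1 FPKM. B2m, H2-K1 and H2-D1 lie between 344 and 1573 FPKM in every library, and H2-Q6 and H2-Q7 below 0.2 FPKM.

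H2-K1, the classical chain known as H-2Kb in this strain, was at 1017 and 1012 FPKM (WT) and 388 and 396 FPKM (KO). The replicates lay close together and the groups far apart. The log2 change was -1.37 with an SE of 0.024 (limma, adjusted p = 3.1e-05), a WT mean 2.59 times the KO mean. H2-D1, the other classical chain (H-2Db), was at 861 and 856 FPKM (WT) and 352 and 344 FPKM (KO). Its replicates were as close, and its change was -1.30 ± 0.025 (adjusted p = 3.1e-05). H2-K1 lies on chromosome 17 from 33996017 to 34000347 (minus strand) and H2-D1 from 35262730 to 35267499 (plus strand; GENCODE M21 on GRCm38, as are the coordinates that follow). The ratio of H2-K1 to H2-D1 was 1.18 and 1.18 (WT) and 1.10 and 1.15 (KO). The classical pair made up 88.4% to 91.0% of the summed FPKM of the 32 listed class I heavy chain symbols in each library.

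B2m, the light chain shared by all class I molecules, lies outside the MHC on chromosome 2 (122147686 to 122153083, plus strand). It was at 1552 and 1573 FPKM (WT) and 670 and 662 FPKM (KO), with a change of -1.23 ± 0.024 (limma estimate ± SE, adjusted p = 3.1e-05). Its WT mean ranked 63 among all 24346 symbols and its KO mean 142. Its fall was thus close in size to that of the classical heavy chains, from another chromosome. Summed over all listed heavy chain symbols, FPKM was 2105 and 2053 (WT) and 838 and 834 (KO), or 1.36 and 1.30 times B2m (WT) and 1.25 and 1.26 times (KO). The sum depends less than single genes on how reads were shared out between close copies, and its log2 change was -1.31 ± 0.025 (limma estimate ± SE, adjusted p = 2.81e-05).

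The nonclassical chains of the Q region parted into 1 expressed gene and a near-silent pair. H2-Q4 (chromosome 17, 35379617 to 35385290, plus strand), a nonclassical chain, was at 58.7 and 59.1 FPKM (WT) and 19.2 and 17.1 FPKM (KO). Its WT mean was 3.24 times its KO mean, with a log2 change of -1.65 ± 0.062 (limma estimate ± SE, adjusted p = 0.000131). H2-Q6 and H2-Q7, which encode the Qa-2 antigens, were hardly detected. H2-Q6 was at 0.0834 FPKM in WT replicate 1, about 1 to 2 fragments, and at 0 in the other 3 libraries. H2-Q7 was at 0.0703 and 0 FPKM (WT) and 0.105 and 0.189 FPKM (KO), from 0 to 8 fragments depending on the transcript. At this depth no difference could be read for either gene. Their windows carry the pair, the short interferon-type element and kappa-B-type letters, as that of H2-K1 does.

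The T region held both the tested gene with the lowest KO level relative to WT and the 1 tested gene that was not called. H2-T22 (chromosome 17, 36037128 to 36042747, minus strand), whose product is recognised by gamma-delta T cells without a bound peptide, was at 28.74 and 22.97 FPKM (WT) and 6.88 and 3.82 FPKM (KO). The replicates were less alike than those of the classical chains, but the groups were well apart, with a log2 change of -2.12 ± 0.24 (limma estimate ± SE, adjusted p = 0.0022). H2-T10 (36115876 to 36121465, minus strand), a close relative that GENCODE lists as a polymorphic pseudogene, was at 3.54 and 4.31 FPKM (WT) and 0.903 and 1.69 FPKM (KO). It rested on about 13 to 60 fragments in each library labelled KO, and its change was -1.12 ± 0.19 (adjusted p = 0.00719). H2-T23 (36029773 to 36032855, minus strand) encodes the heavy chain of Qa-1, which presents a leader peptide of classical chains such as H2-D1 to the natural killer receptor CD94/NKG2A. It was at 5.10 and 5.82 FPKM (WT) and 4.99 and 4.74 FPKM (KO), so that the groups were barely separated. Its change was -0.14 ± 0.083 (limma estimate ± SE, adjusted p = 0.223), with a 95% interval of -0.35 to 0.07. Depending on the transcript, this rested on about 49 to 190 fragments in each library labelled WT and 37 to 131 in each labelled KO. H2-T23 made up 0.243% and 0.283% of the heavy chain sum (WT) and 0.596% and 0.568% (KO).

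H2-M3 (chromosome 17, 37270220 to 37274484, plus strand) presents peptides that begin with N-formyl methionine, as bacterial and mitochondrial proteins do. It was at 14.0 and 15.1 FPKM (WT) and 11.497 and 11.004 FPKM (KO). The groups did not overlap and the fall was small, -0.34 ± 0.058 (limma estimate ± SE, adjusted p = 0.00746).

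By level, the WT order was B2m, H2-K1, H2-D1, H2-Q4, H2-T22, H2-M3, H2-T23 and H2-T10, and no neighbours in this order overlapped between libraries. In the KO libraries H2-M3 stood above H2-T22. There H2-T22 (5.35 ± 2.16 FPKM, SD, n = 2) and H2-T23 (4.86 ± 0.183 FPKM) did not differ beyond their spread.

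The changes within the family differed in size, which was tested against B2m by fitting each gene's log2 value minus that of B2m in the same library. Nearly every tested gene (98.4%) was called as moving differently from B2m in this fit, while 0.711% of the tested genes were called lower than B2m in change. Of the 7 heavy chains tested, 4 were called below the change of B2m, 2 above it and 1 was not called. H2-T22 (-0.89 ± 0.24, SE; limma, adjusted p = 0.0124), H2-Q4 (-0.42 ± 0.058, adjusted p = 0.000623), H2-K1 (-0.14 ± 0.031, adjusted p = 0.00502) and H2-D1 (-0.07 ± 0.028, adjusted p = 0.0481) fell further than B2m. That of H2-D1 was lost in 8 of its 15 alternatives, and that of H2-T22 in 2, without WT replicate 1 (adjusted p = 0.0532) and with robust moderation (0.0888). The changes of H2-M3 and H2-T23, the latter not called as a fall of its own, lay 0.89 ± 0.055 (adjusted p = 1.46e-05) and 1.09 ± 0.079 (adjusted p = 2.9e-05) above the change of B2m. For H2-T10 the difference was 0.11 ± 0.19 (adjusted p = 0.582), with a 95% interval of -0.37 to 0.59. Without KO replicate 1 it was 0.37 (adjusted p = 0.0376) and without KO replicate 2 it was -0.15.

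**Figure D2:**
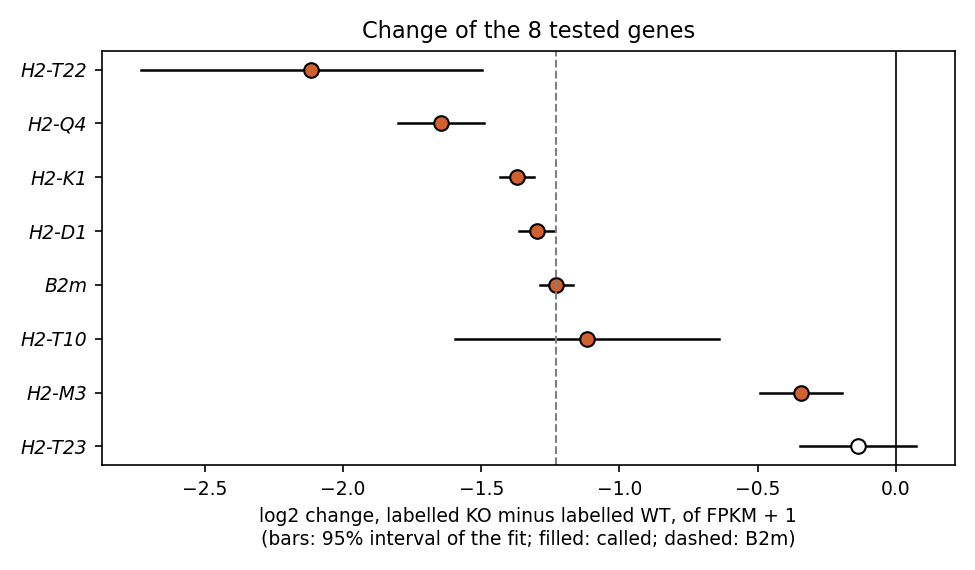
Log2 change of FPKM + 1 (labelled KO minus labelled WT) of the 8 tested genes, with the 95% interval of the limma fit. Filled symbols are called genes and the dashed line is the change of B2m at -1.23. H2-T22 lies lowest at -2.12 and H2-T23, open, at -0.14 with an interval that includes 0.

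Class I genes are paralogs, and the authors' counting can split reads between near-identical copies. In transcripts of GENCODE M21, 44.7% of the 50-base windows of H2-T22 also occurred in another gene, most of them in H2-T10 (37.9%). The share was 34.9% in H2-Q7, 32.0% in H2-Q6, 31.6% in H2-T10, 28.8% in H2-T23, 24.3% in H2-Q4, 14.3% in H2-D1 and 8.79% in H2-K1. It was 0.576% in H2-M3 and 0 in B2m. At 100 bases it was 14.2% in H2-T22, 4.64% in H2-D1 and 0 in H2-K1. Symbols in the deposited values that these transcripts lack, such as H2-T9 and H2-L, could not count in these shares. H2-T22 with H2-T10 summed to 32.3 and 27.3 FPKM (WT) and 7.78 and 5.51 FPKM (KO), a change of -2.02 ± 0.16 (limma estimate ± SE, adjusted p = 0.000734). H2-T9, a further T-region gene that the annotation used here does not list, was at 16.8 and 22.3 FPKM (WT) and 14.5 and 14.4 FPKM (KO). With H2-T9 added, the sum was 49.1 and 49.6 FPKM (WT) and 22.3 and 19.9 FPKM (KO), closer between the WT replicates than any of the 3 genes. Its change was -1.19 ± 0.060 (adjusted p = 0.000228) and was not called against that of B2m (0.04 ± 0.056, adjusted p = 0.512). The fall of H2-T22 beyond B2m was thus lost in this sum, which was chosen after the values were seen. H2-L, which the annotation used here does not list either, was at 91.7 and 49.3 FPKM (WT) and 30.6 and 33.3 FPKM (KO). It was uneven between the WT replicates, and whether its reads came from a gene separate from H2-D1 was not tested. Summed with H2-D1, H2-L gave 953 and 905 FPKM (WT) and 383 and 377 FPKM (KO), a change of -1.29 ± 0.033 (limma estimate ± SE, adjusted p = 4.33e-05). Against that of B2m this change was not called (-0.06 ± 0.039, adjusted p = 0.191). The fall of H2-D1 beyond B2m was thus lost in this sum too.

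Among the 23 other class I heavy chain symbols, 9 were at 0 in all 4 libraries and 5 were tested. Of these, 2 were called lower, against 23.3% of all genes tested, and 0 higher, with a median of -0.40. The called genes were H2-L, a symbol absent from the annotation used here (-1.05 ± 0.28, limma estimate ± SE, adjusted p = 0.0285), and H2-Q5, a polymorphic pseudogene in GENCODE (-0.46 ± 0.12, adjusted p = 0.0267). Neither call held without KO replicate 1 (adjusted p of 0.0846 and 0.0614) or without KO replicate 2 (0.071 and 0.0804), and that of H2-Q5 was lost with the replicate number as a block (0.0552). The call of H2-L was also lost with no filter (0.063), with no mean-variance trend (0.056) and with robust moderation (0.184), and its change moved to -0.61 when WT replicate 1 was left out and to -1.49 when WT replicate 2 was. H2-T9 (-0.40, limma, adjusted p = 0.0503), H2-T24 (-0.005, adjusted p = 0.967) and H2-K2, a pseudogene in GENCODE (0.45, adjusted p = 0.107), were not called. H2-T9 was called lower in 7 of its 15 alternatives, among them without WT replicate 1 (-0.59, adjusted p = 0.00587), where H2-K2 was called higher (0.73, adjusted p = 0.0113).

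**Figure D3:**
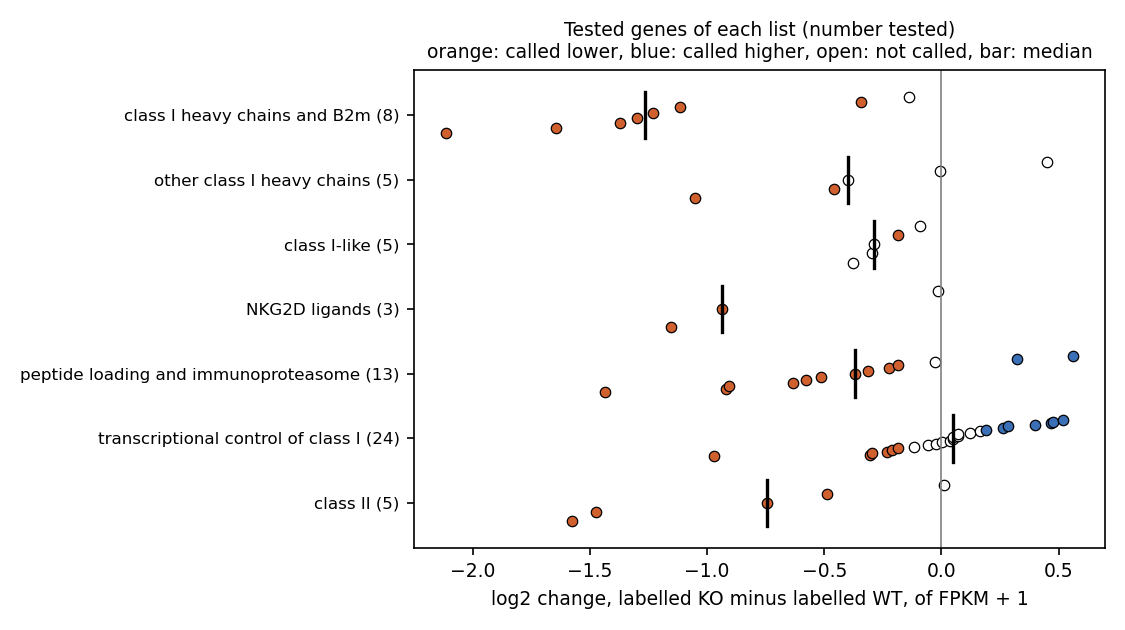
Log2 change of FPKM + 1 (labelled KO minus labelled WT) of each tested gene in 7 lists, with the number tested in brackets and a bar at the median. Orange is called lower, blue called higher and open not called. The class I genes and B2m have a median of -1.26 and the genes of transcriptional control 0.049.

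Peptides reach class I molecules through the proteasome, the TAP transporter and a loading complex. All 13 genes of this route were tested, and 10 were called lower, against 23.3% of all genes tested. A further 2 were called higher and 1 was not called, with a median of -0.37 for the 13. The largest falls were those of the immunoproteasome subunit Psmb9 (-1.43 ± 0.051, SE; limma, adjusted p = 0.000125), the transporter subunit Tap1 (-0.92 ± 0.036, adjusted p = 0.000142), the subunit Psmb8 (-0.90 ± 0.043, adjusted p = 0.000202) and tapasin, Tapbp (-0.63 ± 0.027, adjusted p = 0.000167). The 2 that rose, Pdia3 (0.56) and Calr (0.32), fold glycoproteins in general, as does Canx (-0.03, adjusted p = 0.37). Psmb9 was the only gene of the route whose change exceeded that of B2m in size.

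Among 24 regulators of class I transcription and interferon signalling, 6 were called lower, 7 higher and 11 not, with a median of 0.049. Over all 10827 genes tested, 23.3% were called lower and 47.6% in either direction, so these counts were not read as particular to the list. Nlrc5, the class I coactivator, was at 7.69 and 7.81 FPKM (WT) and 3.24 and 3.69 FPKM (KO). Its groups were far apart and its change of -0.97 ± 0.078 (limma estimate ± SE, adjusted p = 0.00078) was the largest of the list. Irf1, an activator at interferon-type elements, went the other way, from 40.7 and 38.5 FPKM to 48.1 and 47.2 FPKM (0.26 ± 0.041, adjusted p = 0.00569). Irf2, which binds the same elements, was at 13.3 and 12.9 FPKM (WT) and 13.4 and 15.3 FPKM (KO). Its groups did not overlap but nearly touched, and it was not called (0.12, adjusted p = 0.221). The largest called rises were those of the NF-kappa-B subunit Nfkb1 (0.52), the CCAAT-binding subunit Nfyb (0.47) and Creb1 (0.47), which binds TGACG-type sites. The list had 8 called genes under the replicate block and 7 without WT replicate 2, and Nlrc5, Irf1, Nfkb1, Nfyb and Creb1 stayed called in all their alternatives.

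The promoter pair was then compared with the calls outside the family. Of the genes with a promoter window, 124 carried it in at least 1 window, and 42 of them were tested once class I genes and B2m were left aside. Of these 42, 10 (23.8%) were called lower and 12 higher. Among all 8319 tested genes with a window, 1912 were called lower and 2065 higher. Within the family, the tested genes with the pair were H2-Q4, H2-K1, H2-D1, B2m and H2-M3, with log2 changes of -1.65, -1.37, -1.30, -1.23 and -0.34. Those without it were H2-T22 and H2-T23, with -2.12 and -0.14.

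Position was compared next, since 9 of the 10 genes lie in 1 stretch of chromosome 17. Between H2-K1 and H2-M3, 70 tested genes lay outside the listed class I heavy chain symbols. The list was made by symbol, so a class I gene under another kind of symbol would count among the 70. Of the 70, 23 were called lower, 15 higher and 32 not, with a median of -0.022. Over all 10827 genes tested, 23.3% were called lower and 47.6% in either direction, so these counts were not read as particular to the stretch. Among the 70, 4 were the class I route genes Psmb9, Tap1, Psmb8 and Tap2, all called lower (median -0.91). The remaining 66 had a median of -0.001. Outside that route, the largest falls were those of the complement factor C2 (-1.61 ± 0.16, SE; limma, adjusted p = 0.00139), the class II chain H2-Eb1 (-1.47 ± 0.21, adjusted p = 0.00419) and Cdsn, an adhesion protein of the epidermis (-1.46 ± 0.10, adjusted p = 0.000537). The total called in the stretch, 38, was 20 without WT replicate 1, 19 without WT replicate 2 and 25 without KO replicate 1.

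**Figure D4:**
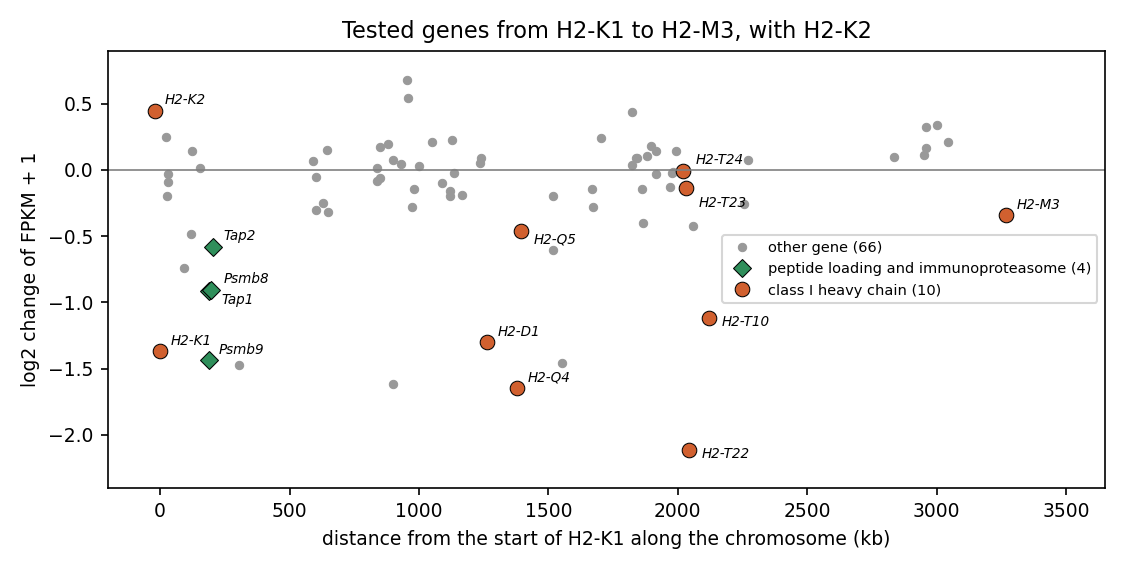
Log2 change of FPKM + 1 (labelled KO minus labelled WT) of tested genes against the distance of their start from that of H2-K1 along chromosome 17, in kilobases. Orange circles are class I heavy chain symbols, including H2-K2, a pseudogene in GENCODE just outside the stretch. Green diamonds are the 4 class I route genes and grey points the other 66 genes, whose median is -0.001.

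The surroundings of B2m on chromosome 2 were counted in the same way. Over all 10827 genes tested, 2641 were called higher and 2518 lower. Of the 20 tested genes nearest to B2m, 10 on each side, 11 were called higher and 1 lower, with a median of 0.35. The largest called rises were those of the fibrillin Fbn1 (1.16 ± 0.058, SE; limma, adjusted p = 0.000219), AA467197 (1.03 ± 0.24, adjusted p = 0.0202), the creatine synthesis enzyme Gatm (0.79) and Myef2 (0.64). The gene called lower was the zinc transporter Slc30a4 (-0.15, adjusted p = 0.0159), with a call that did not hold without WT replicate 1 (0.0745), without WT replicate 2 (0.0799) or without KO replicate 2 (0.0632). AA467197 was at 0.151 and 0.786 FPKM (WT). Its call was lost with the replicate number as a block (adjusted p = 0.0511). B2m itself, among these genes, fell by 1.23 on the log2 scale.

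The genes whose profile over the 4 libraries lay nearest to the mean of H2-K1, H2-D1 and B2m were Pla2g7, Jup, Apol8, Ctsl and Trim30a. The measure was the root mean square distance of centred log2 values, 0.0283 to 0.0368 for these genes and 0.01 to 0.0375 for H2-K1, H2-D1 and B2m themselves. With 2 groups of 2 libraries, a small distance says little more than that the change was of the same size. Ctsl, the lysosomal protease cathepsin L, was at 725 and 723 FPKM (WT) and 302 and 311 FPKM (KO). Trim30a, an interferon-inducible TRIM protein, was at 17.66 and 18.22 FPKM (WT) and 7.119 and 7.003 FPKM (KO).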

How the data were processed

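The authors deposited FPKM values per gene symbol for 4 MC38 libraries. Cufflinks (2.2.1), SAMtools (0.1.19), build mm10, Bowtie2 (2.2.3) and TopHat2 (2.0.13) are named in the submitters' processing notes; settings, annotation and strand handling are not given in the sources used here. Members and lists were chosen with earlier results of these data known. KPC cells, named in the series design, were not analysed here. Depth was estimated from steps between low values and single-transcript gene lengths. With limma 3.58.1 in R 4.3.3, log2(FPKM + 1) was fitted for genes averaging 1 FPKM or more (lmFit, eBayes with a trend, two-sided, no block), adjusted by Benjamini-Hochberg over all 10827 genes and called under 0.05. The script was tested on simulated data. Named genes were the 10 members, Arid5a, up to 4 called genes per list by size, Nlrc5, Irf1, Irf2 and the 5 nearest profiles (1 further gene of the rule is not reported here); Canx, H2-T9, H2-T24, H2-K2, H2-DMb1, Ulbp1, Pdia3, Calr, Tap2, Slc30a4 and the markers were named after their values were seen. Python 3.11.15 (matplotlib 3.10.9, pandas 2.3.3, numpy 2.4.6) read the data, promoters (RefSeq, GRCm38.p6) and GENCODE M21 transcripts. Alternatives covered pseudocount, filter, scaling, variance moderation, block and leaving out each library. With replicate numbers shared between groups but only 2 pairs and no label that ties them, the numbers were not taken to pair the libraries.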

Additional observations from a re-analysis of the deposited data

How the results depend on the processing

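The 8 tested genes, B2m included, kept their direction and their side of the threshold in all 119 values under 14 other settings and 1 scaling chosen after seeing the data (at the 5 FPKM filter H2-T10 was not tested), including the fit with the replicate number as a block, which called 7 lower as well. Of the 104 changes relative to B2m, 14 did not. H2-T10 reversed there at a pseudocount of 0.1 (-0.349), at 0.5 (-0.1) and without KO replicate 2 (-0.148), and ranged up to 0.372 with a library left out. Uncalled changes that reversed were H2-T24 (0.001 with upper-quartile scaling, 0.026 with quantile normalization, 0.033 and 0.065, over a range from -0.075, with a library left out), Ulbp1 (0.028 and 0.036, from -0.061, with a library left out) and H2-DMb1 (-0.224 and -0.055, up to 0.247, with a library left out, -0.048 with the added scaling); the cause was not tested. Genes called over the whole table numbered 3377 to 4109 with 1 library left out (5159 with all), and 4673 with the block. In the pathway and neighbour lists 77 were called, and 48 to 58 with 1 library left out. The added scaling, by the FPKM sum without class I and B2m, moved the split of calls from 51.2% higher to 36.3% higher. The median change over all genes tested was -0.0599 there. Class I and B2m made up only 0.236% to 0.609% of FPKM in each library. The full FPKM sums were 600844 and 609178 (WT) and 638120 and 629442 (KO). The same scaling with class I and B2m kept in was not tested. The replicate deviations of the groups correlated at 0.138 over genes. Depth limits H2-Q6, H2-Q7 and H2-T10, and to a lesser degree H2-T23.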

Other observations

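Ligands of the natural killer receptor NKG2D, which resemble class I chains but bind no B2m, were listed for 8 symbols, of which 3 were tested. Raet1d was at 10.71 and 10.35 FPKM (WT) and 5.48 and 4.61 FPKM (KO), a log2 change of -0.93 ± 0.087 (limma estimate ± SE, adjusted p = 0.00122). Raet1e was at 11.6 and 9.37 FPKM (WT) and 3.46 and 4.93 FPKM (KO), a change of -1.15 ± 0.16 (adjusted p = 0.0042). These 2 are close copies that can share reads. Ulbp1, the third, was at 4.12 and 4.48 FPKM (WT) and 4.10 and 4.40 FPKM (KO), with overlapping groups (-0.01, adjusted p = 0.905). Of 9 class I-like genes, 5 were tested and 1 was called lower, as were 23.3% of all genes tested. This was the protein C receptor Procr (-0.19, limma, adjusted p = 0.0217). That call was lost without WT replicate 1 (adjusted p = 0.102), WT replicate 2 (0.0616) or KO replicate 2 (0.0759).

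Class II genes, which present extracellular peptides and are driven by Ciita, were low in all libraries. Ciita was at 0.0394 and 0 FPKM (WT) and 0 and 0.0353 FPKM (KO). Of 11 class II genes, 4 were at 0 in all libraries and 5 were tested, with 4 called lower, against 23.3% of all genes tested. Cd74, the invariant chain, was at 4.12 and 3.29 FPKM (WT) and 0.574 and 0.565 FPKM (KO), a change of -1.58 ± 0.12 (limma estimate ± SE, adjusted p = 0.000664). H2-Eb1 was at 2.89 and 2.85 FPKM (WT) and 0.133 and 0.719 FPKM (KO), beside H2-Ab1 at 0 in all 4 libraries. H2-Oa (-0.74) was not called without KO replicate 2 (adjusted p = 0.0694), nor H2-DMa (-0.49) without WT replicate 1 (0.0543) or WT replicate 2 (0.0745). H2-DMb1 was not called (adjusted p = 0.96). Without WT replicate 2 the number called was 2. Cd68, from the leukocyte marker list, moved with these genes, from 6.14 and 5.80 FPKM (WT) to 1.03 and 1.67 FPKM (KO), with Ptprc, Itgam and Adgre1 at or near 0. Csf1r of the same list, below the filter, went the other way, from 0 and 0.0231 FPKM (WT) to 0.053 and 0.167 FPKM (KO). A part of such cells in the class II changes was not tested.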
